A study of Mus musculus with 12 samples.

Results

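The transcripts described here encode 39 lysosomal hydrolases and membrane proteins, listed by gene symbol and all found among the 23362 genes of the count tables. The list was chosen because 2 of its members, Lamp1 and Tpp1, were lower in cells that lack XBP1, which switches on genes of protein folding and secretion under stress of the endoplasmic reticulum. The comparisons of Xbp1-deficient with wild-type cells therefore chose the members, and their values in those comparisons, and in the interaction built from them, are a description. Calls from the fits over all genes are counted there beside the share of all genes called, and are no test of the members. Polyadenylated RNA was sequenced from cells of C57BL/6 mice in 4 groups of 3 libraries. Wild-type (GMP WT) and Xbp1-deficient (GMP KO) granulocyte-macrophage progenitors, marrow precursors of granulocytes and monocytes, were sorted into Trizol without culture. GATA2-GMP WT and GATA2-GMP KO were such progenitors transduced with GATA2, which drives eosinophil and mast cell fates, then re-sorted and kept in culture for 48 hours. GATA2-GMP libraries passed through a SMARTer Ultra Low Input kit before the TruSeq preparation that GMP RNA received directly, so stage, transduction, culture and kit cannot be told apart. Neither the kind of Xbp1 allele nor the number of animals behind a group's replicates is stated in the labels, so p-values measure the spread between these libraries, which may be technical.

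Lysosomes are acidic organelles in which hydrolases break down proteins, glycans, lipids and nucleic acids. Most soluble lysosomal enzymes are folded and glycosylated in the endoplasmic reticulum, tagged with mannose 6-phosphate in the Golgi and carried onward by mannose 6-phosphate receptors, while membrane proteins such as LAMP1 and LAMP2 are sorted by signals in their tails. The proton pump V-ATPase acidifies the lumen, and transcription factors of the MiT family, TFEB among them, bind E-box motifs known as CLEAR elements near many lysosomal genes. Granules of eosinophils and mast cells are related to lysosomes and share proteins with them, such as the tetraspanin CD63.

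The RefSeq promoter table (assembly GRCm38.p6, 250 bases before to 50 after each start) held 35 of the 39 genes. The E-box CACGTG, searched on both strands, was present in 12 of the 35 genes (34.3%) and in 8.09% of the 27025 genes of the table. The CLEAR core TCACGTGA, which contains the E-box, was present in Ctsa, Ctsd, Gla and Mcoln1 (11.4%) and in 1.12% of all genes. The XBP1 site TGACGTGG matched none of the 35 and 0.714% of all genes. The shorter ACGTG, which lies inside the E-box, matched 15 (42.9%) and 21.8% of all genes. These are matches of letters only. The 250 bases before the start are printed 5′ to 3′ for 4 members, with matches to the E-box or the CLEAR core in capitals. Lamp1 and Tpp1 are shown because the list was chosen on them, and Ctsd and Mcoln1 because both hold a CLEAR core and an E-box outside it while their transcripts moved in opposite directions with stage. The windows are chr8:13158911-13159160 (plus strand) for Lamp1, chr7:105752236-105752485 (minus) for Tpp1, chr7:142387828-142388077 (minus) for Ctsd and chr8:3500269-3500518 (plus) for Mcoln1.
Lamp1: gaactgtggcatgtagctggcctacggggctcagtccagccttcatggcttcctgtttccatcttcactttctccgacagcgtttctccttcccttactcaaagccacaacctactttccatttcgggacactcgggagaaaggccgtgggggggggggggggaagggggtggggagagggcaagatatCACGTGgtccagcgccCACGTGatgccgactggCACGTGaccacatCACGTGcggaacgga
Tpp1: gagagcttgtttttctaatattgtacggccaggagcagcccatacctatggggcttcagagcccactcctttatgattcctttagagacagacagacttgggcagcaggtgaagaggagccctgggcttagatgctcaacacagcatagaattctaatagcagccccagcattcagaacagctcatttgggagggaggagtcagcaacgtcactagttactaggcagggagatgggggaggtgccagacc
Ctsd: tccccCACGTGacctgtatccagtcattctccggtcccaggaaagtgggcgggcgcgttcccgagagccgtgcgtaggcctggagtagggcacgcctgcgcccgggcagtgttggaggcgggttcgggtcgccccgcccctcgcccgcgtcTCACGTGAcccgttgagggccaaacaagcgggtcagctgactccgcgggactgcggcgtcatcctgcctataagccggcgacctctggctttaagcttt
Mcoln1: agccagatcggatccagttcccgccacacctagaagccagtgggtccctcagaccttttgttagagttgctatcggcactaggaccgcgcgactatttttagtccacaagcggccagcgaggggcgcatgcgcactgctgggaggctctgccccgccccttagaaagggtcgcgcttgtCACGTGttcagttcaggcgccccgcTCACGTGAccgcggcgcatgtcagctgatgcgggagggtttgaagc
Lamp1 held 4 E-boxes, whose first bases lie 61, 45, 28 and 15 bases before the start, and Tpp1 held no match. Ctsd held the CLEAR core 99 bases and a further E-box 245 bases before the start. In Mcoln1 the CLEAR core lies 46 and a further E-box 71 bases before it.

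Library totals ran from 8219366 to 33640911 counts. By library size, 1 CPM (a unit for counts relative to the library total) stood for at least 8.22 reads. The CPM used below were scaled by TMM (trimmed mean of M values) over all 12 libraries, which changes the reads behind 1 CPM. Xbp1, the targeted gene, had 131 to 153 CPM in GMP WT against 55.9 to 89.8 CPM in GMP KO, and 197 to 381 CPM in GATA2-GMP WT against 99.9 to 128 CPM in GATA2-GMP KO. These gene-level reads also count exons outside any deleted stretch. Calls in GATA2-GMP depended on single libraries. Over all genes tested in GATA2-GMP, edgeR called 44 genes between the genotypes, 525 without GATA2-GMP WT 3 and 0 without GATA2-GMP KO 1 or KO 3. Among the lysosomal genes GATA2-GMP WT 3 had the highest of the 3 GATA2-GMP WT values for Man2b1 (1268 against 583 and 415 CPM), Idua (50.6 against 19.6 and 12.2 CPM) and Mcoln1 (15.6 against 3.87 and 6.78 CPM). Results that turn on a single library are given with and without it.

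The 39 transcripts together took 0.545 to 0.561% of the counts in the 6 GMP libraries and 1.02 to 1.21% in the 6 GATA2-GMP libraries. Per kilobase of exonic length (GENCODE M1, 38 members with 1 gene model each), the highest mean level in GMP WT was that of Ctsz, a cysteine carboxypeptidase, at 186 CPM per kb. It was followed by Psap (prosaposin, precursor of the saposins that help lipid breakdown) at 157, Hexa (a beta-hexosaminidase subunit) at 115, Lamp1 at 113 and Ctsd at 109 CPM per kb. In GATA2-GMP WT the order was led by Cd63 at 2108, Ctsd (the aspartic protease cathepsin D) at 1173 and Ctsh (the aminopeptidase cathepsin H) at 525 CPM per kb, and in GATA2-GMP KO Ctsd came first at 1458 and Cd63 second at 1355 CPM per kb. Per-kb levels cross the kit boundary between GMP and GATA2-GMP and are not compared there.

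**Figure D1:**
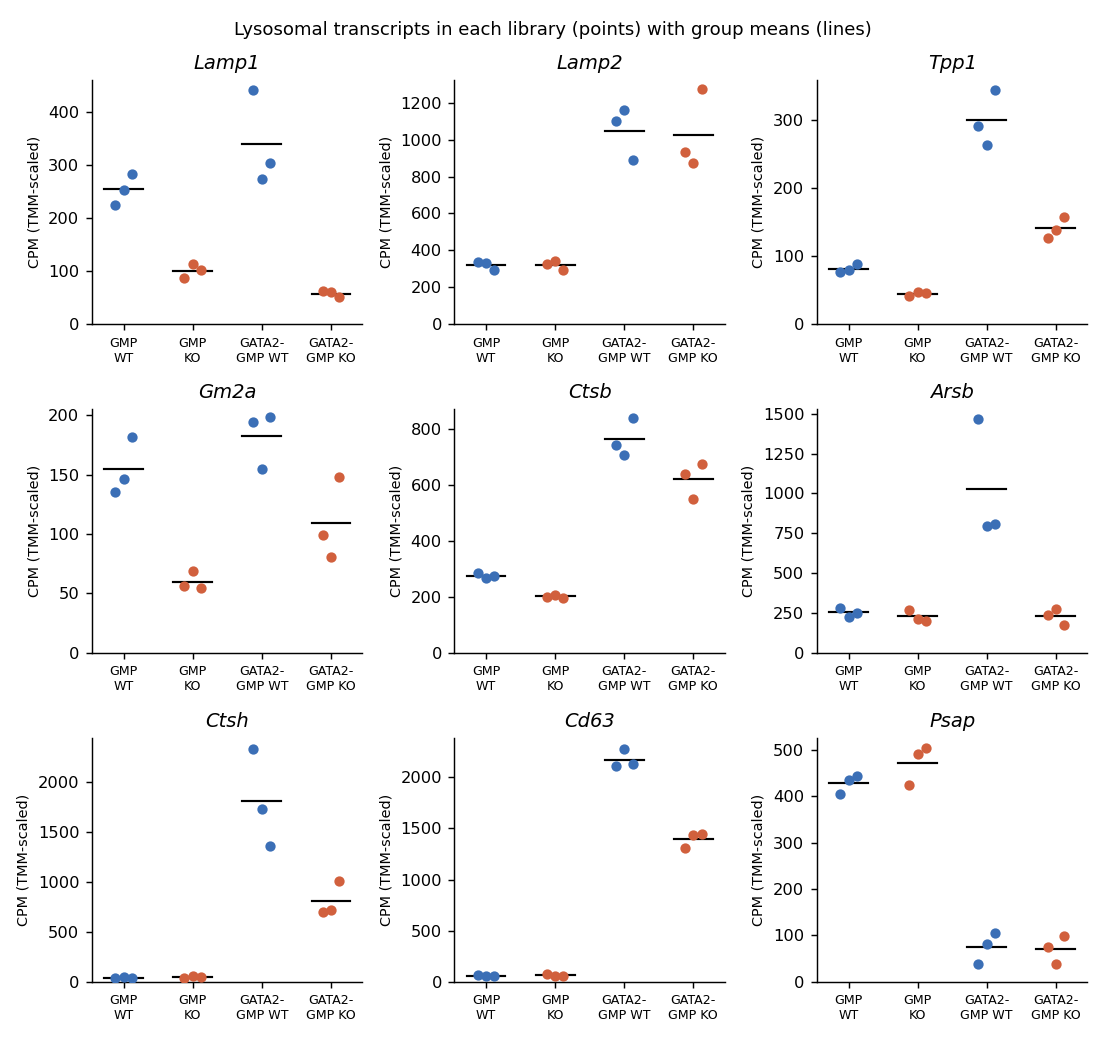
TMM-scaled CPM (vertical axis, linear, from 0) of 9 lysosomal transcripts in each of the 12 libraries (points; blue WT, red KO) with group means (lines). Lamp1 and Tpp1 lie lower in every KO library than in every WT library of the same stage, Lamp2 does not separate by genotype, and Cd63 and Ctsh are low in all GMP libraries and high in all GATA2-GMP libraries.

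The first comparison asked which of these transcripts differed in freshly sorted Xbp1-deficient progenitors. Of the 39, all of which passed the filter on low counts, 5 were past edgeR's threshold (adjusted p under 0.05 over 12002 genes) and all 5 were lower in GMP KO: Gm2a, Lamp1, Tpp1, Ctsb and Manba. Over all genes 2.52% were called lower and 0.658% higher. Since this contrast chose the members, nothing is read from that count. The median log2 fold change (KO minus WT) was 0.03 for the members and 0.006 for all genes tested, and 23 of the 39 values were positive.

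Lamp1, a major glycoprotein of the lysosomal membrane, had 225, 254 and 284 CPM in the libraries GMP WT 1 to 3, against 87.2, 113 and 102 CPM in GMP KO 1 to 3. The groups did not overlap, and the log2 fold change was -1.35 (SE 0.12). Lamp2, its close relative in structure and place, had 336, 329 and 291 CPM in GMP WT against 328, 341 and 293 CPM in GMP KO, at a log2 fold change of -0.004 (SE 0.061), with overlapping groups. The other membrane proteins, which are Scarb2 (LIMP-2, the carrier of beta-glucocerebrosidase), Cd63, Cd68, the cation channel Mcoln1 and the cystine exporter Ctns, lay between -0.05 and 0.15.

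Among the proteases, Tpp1 (tripeptidyl peptidase 1, deficient in a form of neuronal ceroid lipofuscinosis) had 75.8, 79.9 and 88.6 CPM in GMP WT against 41.5, 47.4 and 45.2 CPM in GMP KO, at -0.88 (SE 0.078). Ctsb (cathepsin B) had 284, 269 and 276 CPM in GMP WT against 201, 208 and 196 CPM in GMP KO, at -0.47 (SE 0.050). Both groups of libraries were tightly spaced and did not overlap for either gene. The remaining 6 of the 8 cysteine and serine proteases and the aspartic protease Ctsd lay between -0.14 (Ctsl) and 0.41 (Ctss, SE 0.18), Ctss being the largest positive value of all members.

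Gm2a, the activator protein that presents ganglioside GM2 to hexosaminidase, had 136, 146 and 182 CPM in GMP WT against 56.6, 68.5 and 54.6 CPM in GMP KO, at -1.38 (SE 0.13), the most negative value of the 39. Psap, the other activator, had 405, 435 and 443 CPM in GMP WT against 424, 491 and 503 CPM in GMP KO, at 0.13 (SE 0.076). The WT and KO libraries of Psap overlapped, in contrast to those of Gm2a. Of the lipid enzymes, the lowest was the sphingomyelinase Smpd1 at -0.24 and the highest the acid lipase Lipa at 0.13.

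Manba (beta-mannosidase), the only one of 9 glycosidases past the threshold, had 89.5, 92.5 and 90.2 CPM in GMP WT against 63.6, 78.3 and 73.8 CPM in GMP KO, at -0.35 (SE 0.076). The sialidase Neu1 was the highest of the glycosidases at 0.35 (SE 0.10), and none of the 8 enzymes of glycosaminoglycan and sulfate ester breakdown passed the threshold, with Sgsh (heparan N-sulfatase) at 0.32 and Gusb (beta-glucuronidase) at 0.21. Libraries did not overlap for 7 members lower and 10 members higher in GMP KO, where over all genes 8.09% and 11.3% did not overlap. The labels do not say whether GMP WT and GMP KO libraries of equal replicate number are pairs. Their deviations from the group means correlated at 0.36, 0.35 and 0.24. With that number as a replicate block edgeR called 7 members lower, the same 5 with Gla and Arsb, and 5 higher (Ctsz, Ctsa, Man2b1, Neu1 and Gusb), where 4.73% and 3.3% of all genes were called. Manba was not past the threshold without any 1 of the GMP WT libraries, and Ctsh and Ctss were called higher without GMP KO 1.

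In GATA2-GMP the genotype comparison placed 2 of the 39 transcripts past the threshold, Lamp1 and Arsb, both lower in KO, where 0.274% of 11699 genes were called lower and 0.103% higher. Lamp1 had 442, 274 and 304 CPM in GATA2-GMP WT against 61.4, 59.7 and 50.6 CPM in GATA2-GMP KO, at a log2 fold change of -2.57 (SE 0.26). Each KO library thus had less than any WT library of either stage. Arsb (arylsulfatase B, which removes sulfate from dermatan and chondroitin sulfate) had 1467, 796 and 811 CPM in GATA2-GMP WT against 239, 278 and 177 CPM in GATA2-GMP KO, at -2.14 (SE 0.32). In GMP it had shown 283, 228 and 249 CPM in WT against 271, 211 and 202 CPM in KO, at -0.16 (SE 0.12), with overlapping libraries. Without GATA2-GMP KO 1 edgeR called no member, with 8 at an unadjusted p under 0.05, and without KO 3 it called none, with 10. In those fits it called 0 of all 11857 and 0 of all 11922 genes. Without WT 1 or KO 2 Lamp1 was the only member called. Over all genes 6 were then lower and 2 higher of 11980 without WT 1, and 10 lower and 10 higher of 11981 without KO 2. In 1 fit over all 12 libraries 9 members were lower and 3 higher, where 6.76% and 4.66% of all genes were called, whereas in GMP that fit called 3 lower and 0 higher, beside 0.125% and 0.00781%.

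Further members had log2 values below -1 in GATA2-GMP without passing the threshold. Tpp1 had 291, 263 and 345 CPM in WT against 127, 138 and 158 CPM in KO, at -1.09 (SE 0.22), and its groups did not overlap. Ctsh had 2335, 1737 and 1361 CPM in WT against 701, 721 and 1007 CPM in KO, at -1.16 (SE 0.29). Scarb2 had 25.1, 20.7 and 16.3 CPM in WT against 10.3, 9.86 and 9.76 CPM in KO, at -1.05 (SE 0.26). Every WT library was above every KO library for these 3 genes. Without GATA2-GMP WT 3 all 3 were past the threshold beside Lamp1 and Arsb, in a comparison where 2% of all genes were called lower and 2.38% higher.

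On the positive side, Lgmn (legumain, an asparaginyl endopeptidase) had 4.64, 10.1 and 4.60 CPM in GATA2-GMP WT against 23.1, 11.5 and 29.7 CPM in KO, at 1.73 (SE 0.44). Ctss, the cathepsin S of antigen-presenting cells, had 25.8, 43.1 and 30.2 CPM in WT against 75.2, 36.7 and 113 CPM in KO, at 1.19 (SE 0.39). The WT and KO libraries overlapped for Ctss and not for Lgmn. Glb1 (beta-galactosidase), Ctsl (cathepsin L) and Hexa followed at 0.63, 0.51 and 0.37. The median of the 39 was -0.17 beside -0.005 for all genes, and libraries did not overlap for 12 members lower and 3 higher in KO, beside 12.3% and 10.2% of all genes. With library size alone as the scaling, the members' median became 0.01 and that of all genes 0.18.

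**Figure D2:**
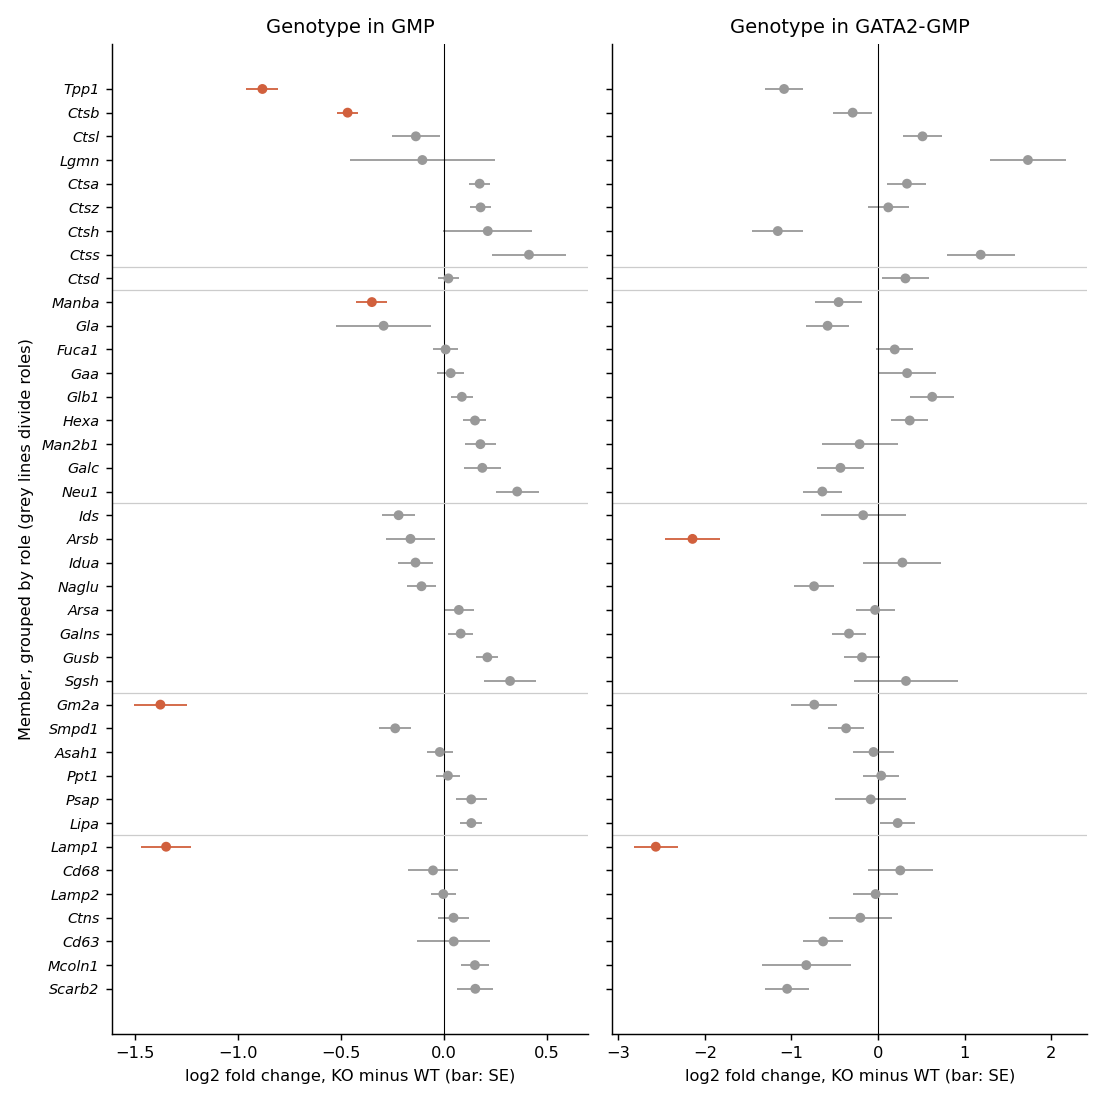
Log2 fold change, KO minus WT, with its SE (horizontal bars) of the 39 members in GMP (left) and GATA2-GMP (right), grouped by role from proteases at the top to membrane proteins at the bottom. Red marks the 5 and 2 members past an adjusted p of 0.05, the horizontal scales of the panels differ, and Lamp1 lies far to the left of Lamp2 in both.

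Gm2a and Ctsb were not past the threshold in GATA2-GMP. Gm2a had 195, 155 and 199 CPM in WT against 99.4, 80.5 and 148 CPM in KO, at -0.74 (SE 0.26). Ctsb had 741, 708 and 840 CPM in WT against 637, 551 and 676 CPM in KO, at -0.29 (SE 0.22). For both genes each KO library was below each WT library, with Gm2a in KO 3 close to WT 2. The difference of the genotype effect between the stages (GATA2-GMP minus GMP) was -2.00 (SE 0.35) for Arsb, -1.39 (SE 0.34) for Ctsh, -1.24 (SE 0.27) for Lamp1, -1.21 (SE 0.25) for Scarb2 and -1.01 (SE 0.25) for Neu1. It was -0.22 (SE 0.20) for Tpp1, and 1.81 (SE 0.65) for Lgmn. No member was past edgeR's threshold in this interaction, where 0.0859% of 12803 genes were called; at an unadjusted p under 0.05 there were 12, and DESeq2 called 9, all lower, beside 5.04% of all genes lower and 2.07% higher. Without GATA2-GMP WT 3 there were 7 past edgeR's threshold, Idua higher and Ctsh, Neu1, Naglu, Arsb, Lamp1 and Scarb2 lower, where 4.33% and 4.7% of all genes were called higher and lower.

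In bulk RNA fewer cells of a type and less RNA per cell cannot be told apart. Summed over 10 eosinophil markers, the level was 135829 to 207204 CPM in GATA2-GMP WT against 56409 to 68501 CPM in GATA2-GMP KO. Most of that sum was Prg2, at 121128 to 178094 CPM in WT and 49528 to 60218 CPM in KO. The 9 dendritic cell markers summed to 35.4 to 72.6 CPM in WT and 150.3 to 209 CPM in KO. In each of these groups 6 of the 9 stayed under 1 CPM in every library. The sum of 12 mast cell and basophil markers ran from 4871 to 13837 CPM and from 8436 to 13704 CPM, and that of 20 monocyte and macrophage markers found in the tables from 5625 to 9651 CPM and from 4372 to 6793 CPM. Of the latter list C1qa, C1qb and Siglec1 were at 0 in all GATA2-GMP WT libraries and C1qc in all GATA2-GMP KO libraries. The part of these differences in the genotype values was not tested.

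The stage comparisons did not choose the members and were tested. They share libraries with the genotype comparisons that chose the list on Lamp1 and Tpp1, so the stage values of those genes are a description. The first asked how the transcripts differed between GATA2-GMP WT and GMP WT. Most were higher: edgeR called 24 of the 39 higher, 6 lower and left 9 uncalled, where 34.1% of 12251 genes were called higher and 36.4% lower. The median log2 fold change was 0.91 for the members and -0.09 for all genes. With library size alone as the scaling, which moved the median of all genes by 0.84 to -0.93, the calls were 17 higher and 12 lower. Over all genes that scaling called 20.4% higher and 55.6% lower, the members' median was 0.07, and Gusb, Lipa and Smpd1 turned from called higher to negative values.

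All 8 cysteine and serine proteases and Ctsd rose in GATA2-GMP WT, of which Ctsz and Ctss were not past the threshold with library size alone. Ctsh stood at 41.0, 46.7 and 36.7 CPM in GMP WT against 2335, 1737 and 1361 CPM in GATA2-GMP WT, a log2 difference of 5.45 (SE 0.28, edgeR adjusted p = 4.88e-06). Ctsd went from 275, 277 and 271 CPM to 2349, 2965 and 3553 CPM, at 3.44 (SE 0.23, edgeR adjusted p = 1.04e-05). Neither gene had a GATA2-GMP library near the GMP range. Lgmn, whose GMP WT libraries lay between 0.598 and 0.838 CPM, rose by 3.14 (SE 0.44, edgeR adjusted p = 0.000351), and Ctsl by 2.17 (SE 0.18, edgeR adjusted p = 3.01e-05). Tpp1 rose by 1.89 (SE 0.17, edgeR adjusted p = 3.79e-05).

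Membrane proteins divided. Cd63, which marks late endosomes and secretory granules, went from 70.6, 52.9 and 56.7 CPM to 2113, 2278 and 2128 CPM, at 5.18 (SE 0.22, edgeR adjusted p = 2.58e-06). GENCODE M1 also holds a pseudogene named after it, Cd63-ps. Reads whose alignment was not unique have a counter row of their own, apart from the genes. The part of such reads in the level of Cd63 was not tested. Lamp2 lay at 291 to 336 CPM in GMP WT and at 889 to 1159 CPM in GATA2-GMP WT, at 1.73 (SE 0.18, edgeR adjusted p = 7.98e-05), and Cd68 (macrosialin) rose by 2.16 (SE 0.26, edgeR adjusted p = 0.000183). Scarb2 fell by 1.15 and Mcoln1 by 1.47 on the log2 scale, while Ctns at 0.81 was not called. Lamp1 was not called either: at 0.42 (SE 0.22, edgeR adjusted p = 0.113) its GMP and GATA2-GMP libraries overlapped, its value was -0.42 with library size alone, and without GATA2-GMP WT 3 it was 0.59 (edgeR adjusted p = 0.0281).

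Lipid enzymes and their activators also went both ways. Asah1 (acid ceramidase) rose by 2.42 (SE 0.18, edgeR adjusted p = 1.67e-05) and the palmitoyl thioesterase Ppt1 by 1.98. Psap fell from 405, 435 and 443 CPM to 38.4, 81.3 and 105 CPM, at -2.51 (SE 0.34, edgeR adjusted p = 0.000339). The saposins it encodes serve as cofactors of acid ceramidase and other lipid enzymes. Gm2a at 0.25 was not called. With library size alone Gm2a was called lower, as were 55.6% of all genes.

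Of the 9 glycosidases, 5 rose (Glb1, Man2b1, Gla, Neu1 and Fuca1, from 1.88 to 0.88) and Gaa, the acid alpha-glucosidase of glycogen breakdown, fell by 2.04 on the log2 scale (SE 0.21, edgeR adjusted p = 7.79e-05). Among the 8 enzymes of glycosaminoglycan and sulfate ester breakdown, Arsb rose by 2.02, Galns (which acts on keratan sulfate) by 1.92 and Gusb by 0.56, and Ids (iduronate sulfatase) fell by 2.15 (SE 0.32, edgeR adjusted p = 0.000537) and Sgsh by 1.31. Arsb and Ids, which both act on dermatan sulfate, were called in opposite directions. With library size alone Man2b1, Fuca1 and Gusb were not called, and Galc, Hexa, Manba, Naglu and Arsa were called lower. That scaling called 20.4% of all genes higher and 55.6% lower. Sgsh was not past the threshold without any 1 of GMP WT 1 to 3 or GATA2-GMP WT 1 or 2, Gusb without GMP WT 1 or 2, and Mcoln1 without GATA2-GMP WT 2. Without GATA2-GMP WT 3 there were 26 higher and 10 lower calls among the 39, where 38.3% and 40.5% of all genes were called, adding Lamp1 and Ctns higher and Galc, Manba, Idua and Arsa lower.

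In the KO libraries, none of which entered the WT comparison, edgeR called 25 members higher in GATA2-GMP than in GMP, 11 lower and left 3 uncalled, where 38.6% of 12438 genes were called higher and 40% lower. The median was 0.84 for the members and -0.05 for all genes. With library size alone the calls were 17 higher and 14 lower (26.3% and 53.7% of all genes), and Neu1, Idua, Smpd1 and Ctns turned from called higher to negative. The sign was the same in both genotypes for 37 of the 39. Neu1, Ctns, Manba and Idua each lost the call on leaving out at least 1 of the KO libraries. A total of 22 rose in both, 6 fell in both (Psap, Ids, Gaa, Mcoln1, Sgsh and Scarb2), and none was called in opposite directions.

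Cd63 in KO went from 78.2, 56.9 and 51.9 CPM to 1305, 1436 and 1449 CPM, at 4.49 (SE 0.21, edgeR adjusted p = 3.39e-07). Ctsd went from 293, 291 and 258 CPM to 3664, 3586 and 3768 CPM, at 3.72 (SE 0.17, edgeR adjusted p = 2.64e-07). Ctsh rose by 4.07 (SE 0.26, edgeR adjusted p = 1.58e-06). These 3 transcripts led in both genotypes together with Lgmn, which rose by 4.96 in KO (SE 0.45, edgeR adjusted p = 1.07e-05); its GMP KO libraries lay between 0.393 and 0.873 CPM, and the lowest count of Lgmn in any library was 9. The libraries of the stages did not overlap for any of the 4 in either genotype. Ctsl at 2.81, Cd68 at 2.45, Glb1 at 2.41 and Asah1 at 2.38 also rose, and Psap fell by 2.74 (SE 0.31, edgeR adjusted p = 3.96e-05) and Mcoln1 by 2.46.

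Lamp1 and Arsb had these stage values in each genotype. In KO, Lamp1 fell by 0.81 on the log2 scale with stage (SE 0.15, edgeR adjusted p = 0.000856). In WT it was at 0.42 (SE 0.22, edgeR adjusted p = 0.113). The KO libraries also entered the comparisons that chose the list on Lamp1 and Tpp1, so these p-values are no separate test of Lamp1. Arsb, which rose by 2.02 in WT, was at 0.03 in KO (SE 0.20, edgeR adjusted p = 0.896), with overlapping libraries. The difference between these stage effects is the difference of genotype effects given above, -1.24 for Lamp1 and -2.00 for Arsb. It is built from the values that chose the members and was not tested further. Tpp1 rose by 1.67 in KO (SE 0.14, edgeR adjusted p = 5.99e-06), close to its 1.89 in WT.

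**Figure D3:**
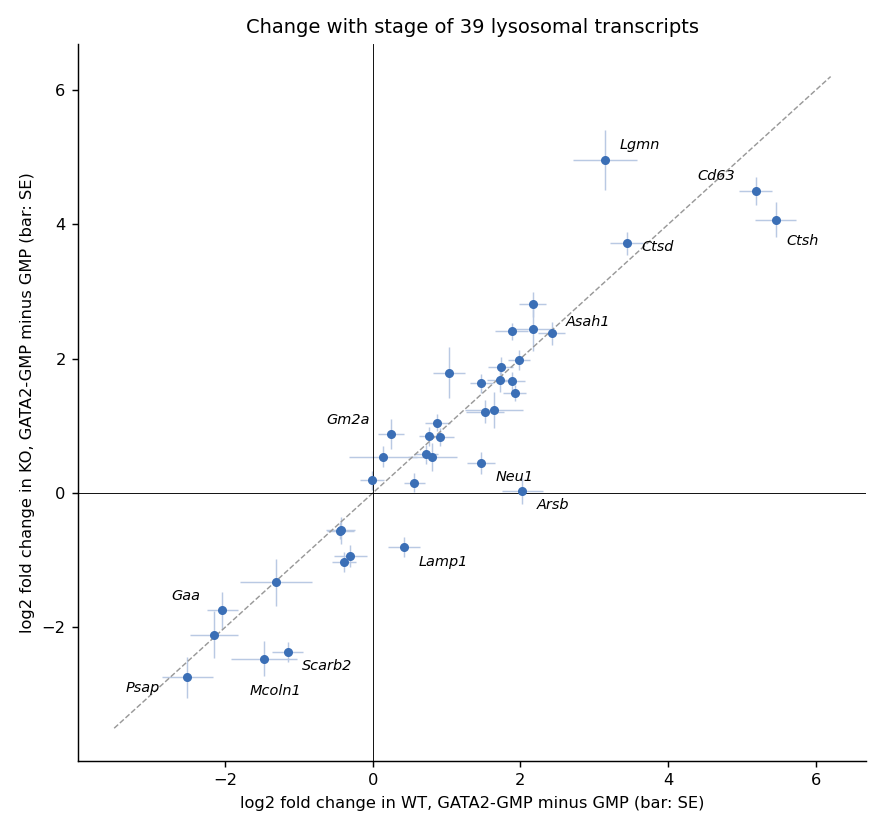
Log2 fold change with stage, GATA2-GMP minus GMP, of the 39 members in WT (horizontal axis) and KO (vertical axis), with SE as bars and the line of equal change dashed. Most points follow the line from Psap at -2.51 and -2.74 to Cd63 at 5.18 and 4.49, while Arsb (2.02 and 0.03) and Lamp1 (0.42 and -0.81) lie below it.

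Transcript length moved with the stage values. Over 11489 genes with a length, the Spearman correlation between exonic length and the WT stage log2 fold change was -0.25 (across genes of the same libraries, given as a description), and over 38 members it was -0.28. The median WT value fell from 0.77 in the shortest of 4 equal bins of genes (up to 2.29 kb) to -0.59 in the longest. Cd63 has 1.03 kb and Ctsd 2.52 kb, whereas Psap, which fell, has 2.73 kb, and Lamp2, which rose, has 9.55 kb. The part of length in the stage calls was not tested. The eosinophil markers summed to between 77.2 and 273 CPM in GMP WT, beside the GATA2-GMP WT sums above, and those of monocytes and macrophages to between 1338 and 1561 CPM. Within that last list Emr1 (F4/80) had 7.99 to 10.4 CPM in GMP WT against 333 to 801 CPM in GATA2-GMP WT. Csf1r, the receptor that macrophages need, had 129.7 to 171 CPM against 12.2 to 24.5 CPM. The mast cell and basophil markers summed to between 689 and 723 CPM in GMP WT, against 4871 to 13837 CPM in GATA2-GMP WT. The part of these markers in the stage values was not tested.

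A set of 144 other genes of the lysosome, none of them members, gave the context. Between the genotypes in GMP, 136 were tested, 5 were lower in KO and 1 higher, 4.41% of them beside 3.17% of all genes. Plbd2, a phospholipase B-like lysosomal protein, fell from 44.2 ± 6.11 to 24.7 ± 0.264 CPM (mean ± SD, n = 3 libraries each), at -0.86 (SE 0.097, edgeR adjusted p = 0.000345). Hgsnat, which acetylates heparan sulfate at the lysosomal membrane, fell by 0.81 (SE 0.098, edgeR adjusted p = 0.000423). The tetraspanin Tspan3 fell by 0.83 (SE 0.080, edgeR adjusted p = 8.68e-05), Sidt2 by 0.59 and the transporter Abca2 by 0.31, and Litaf, a late endosomal adaptor, rose by 0.38. No call was made among 18 V-ATPase subunits, 31 sorting genes and 20 genes of MiT factors and nutrient signalling; at an unadjusted p under 0.05 these lists had 3, 8 and 2. With the replicate block the 136 genes gave 10 lower and 7 higher, where 4.73% and 3.3% of all genes were called. In 1 fit over 12 libraries edgeR called none of these lysosomal genes, with 6 at an unadjusted p under 0.05 (DESeq2 on the GMP libraries: 6 lower, 1 higher), and without GMP KO 3 Litaf was not called. In GATA2-GMP, edgeR called none of 137, with 22 at an unadjusted p under 0.05, and DESeq2 called 3 higher and 6 lower, beside 2.28% and 2.68% of all genes. Without GATA2-GMP WT 3 edgeR called 5 higher and 3 lower (2.38% and 2% of all genes), and in 1 fit over 12 libraries 5 higher and 17 lower (4.66% and 6.76%).

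With stage, most V-ATPase subunits rose. Of 18 tested, 13 rose and 4 fell in each genotype, with medians of 1.96 in WT and 1.88 in KO. Over all genes 34.1% rose and 36.4% fell in WT, and 38.6% and 40% in KO. With library size alone 13 rose and 4 fell in WT, at a median of 1.13, and 12 rose and 5 fell in KO. Over all genes that scaling called 20.4% higher and 55.6% lower in WT, and 26.3% and 53.7% in KO. Atp6v0e went from 83.4 ± 4.19 to 1244 ± 388 CPM in WT (mean ± SD, n = 3 libraries each), at 3.91 (SE 0.28, edgeR adjusted p = 1.56e-05), and Atp6v1d and Atp6v0b rose by 3.53 and 3.39. Atp6v0c, which encodes the proteolipid of the pump, had 50 to 107 counts in the GMP WT libraries and 0 to 3 in GATA2-GMP WT, and was called lower. The count tables also hold a pseudogene named after it (Atp6v0c-ps2, listed at 0 in every library). Reads whose alignment was not unique have a counter row apart from the genes. The part of such reads in Atp6v0c was not tested, so its level and its call are uncertain. The lists of other enzymes and other membrane proteins moved both ways: 17 rose and 9 fell of 35 enzymes in WT, 9 rose and 12 fell of 34 membrane proteins. With library size alone these counts were 16 and 16 for the enzymes and 5 and 23 for the membrane proteins. The median of the membrane proteins was then -0.91, beside -0.93 for all genes. Litaf rose by 4.23 and the gamma-glutamyl hydrolase Ggh by 3.35, and Mfsd12, a cysteine transporter of lysosomes and melanosomes, fell by 6.60, from 25.9 ± 1.91 to 0.248 ± 0.154 CPM.

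Of the sorting genes, 8 of 31 rose and 8 fell in WT, 12 and 10 in KO. With library size alone 4 rose and 16 fell in WT, at a median of -0.81, and 6 and 15 in KO. Over all genes that scaling called 20.4% higher and 55.6% lower in WT, at a median of -0.93. In KO it called 26.3% and 53.7%. Gga1, a Golgi adaptor that recognises mannose 6-phosphate receptors, fell from 84.3 ± 2.49 to 8.38 ± 1.11 CPM in WT, at -3.33 (SE 0.18, edgeR adjusted p = 4.73e-06), and the retromer subunit Vps29 rose by 3.17. Among 21 genes of MiT factors and nutrient signalling, 9 rose and 9 fell in WT, against 6 and 12 with library size alone, at a median of -0.98. Tfeb, the factor for which CLEAR elements are best known, fell from 11.6 ± 0.524 to 1.42 ± 0.320 CPM in WT (SD, n = 3 libraries each), at -3.03 (SE 0.26, edgeR adjusted p = 3.29e-05), and by 3.16 in KO. Lamtor3, a subunit of the Ragulator complex, rose by 3.14 in WT and 3.08 in KO.

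**Figure D4:**
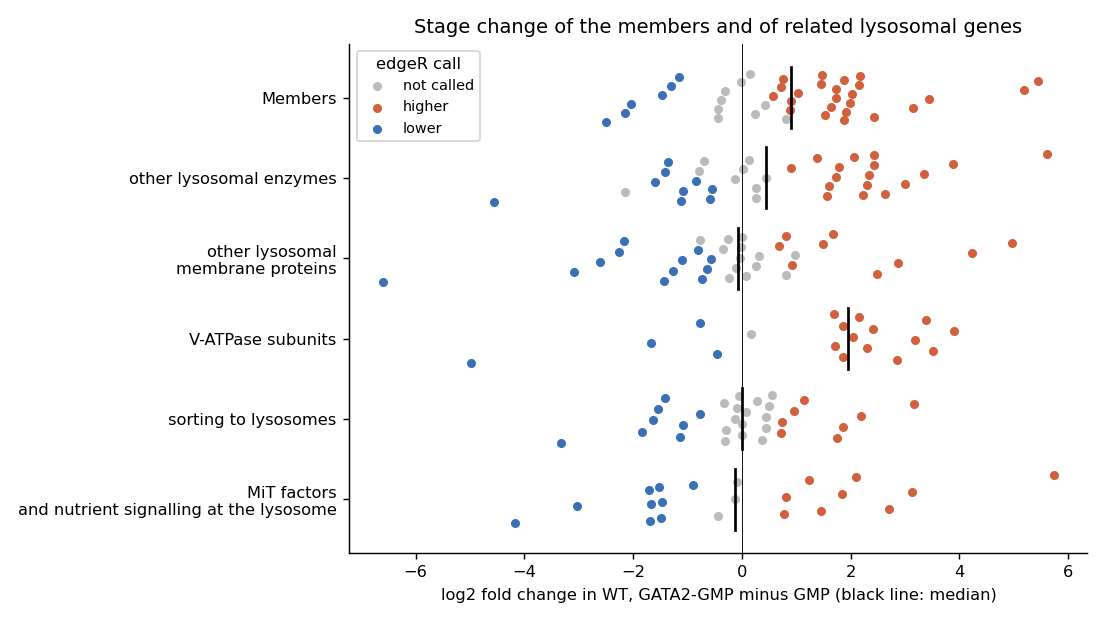
Log2 fold change with stage in WT, GATA2-GMP minus GMP, of the 39 members and of 5 lists of related lysosomal genes (points; red called higher, blue called lower, grey not called; vertical spread within a list has no meaning), with each list's median as a black line. V-ATPase subunits have a median of 1.96 and the members one of 0.91. The other membrane proteins, sorting genes and MiT and nutrient signalling genes have medians near 0. With library size alone the medians of these lists were -0.91, -0.81 and -0.98, beside -0.93 for all genes.

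On build mm9 (GENCODE M1) Lamp1 lies on chromosome 8 from 13159135 to 13175338 (plus strand) and Tpp1 on chromosome 7 from 112893334 to 112900738 (minus strand). The strand setting of the counting is not given in the sources used here, so reads from overlapping genes cannot be assigned with certainty. Exons of other genes covered 45.3% of Arsb's exonic bases, in this case a lincRNA on the opposite strand, and 7.85% of those of Lamp1. The gene that overlaps Lamp1, Grtp1, had at most 1.54 CPM in any library. Shares for Sgsh, Arsa, Ctsa and Ctsb were 21.6, 18.8, 17.4 and 16.2%. Fdft1, which overlaps Ctsb on the opposite strand, had 5.82 to 6.79 CPM in GMP WT and 122 to 141 CPM in GATA2-GMP WT. In KO it had 5.50 to 6.39 CPM in GMP and 95.0 to 122 CPM in GATA2-GMP. Card14 (over Sgsh), Pltp and Neurl2 (over Ctsa) had at most 0.15, 0.251 and 3.31 CPM in any library. No level was available for the lincRNAs over Arsb and Arsa. The part of such reads in the member values was not tested.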

How the data were processed

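RNA-seq count tables of 12 libraries were used, 3 in each of 4 groups. The deposited values were raw read counts per gene, as the values are whole numbers and their totals differ. Per the submitters' processing notes, the build was mm9 and the tools were STAR 2.3.0, SAMtools 0.1.14, HTSeq and DESeq. Their roles, the annotation, the strand setting and the filters are not given in the sources used here. The 5 counter rows hold reads assigned to no gene: no feature, ambiguous, too low alignment quality, not aligned and alignment not unique. Together they made up 55.8 to 66.5% of records and were set aside. Some gene names had become dates in the files of GMP: 23 were restored and 4 were left out.

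Tests used edgeR 4.0.16 under R 4.3.3 (filterByExpr, TMM, glmQLFit with robust=TRUE, glmQLFTest), each comparison on its 6 libraries and the interaction on all 12. Adjustment was by Benjamini-Hochberg across every gene in the test, with a threshold of 0.05. Dividing the log2 fold change by the root of its F statistic gave the SE. The procedure was tested on simulated data. CPM were TMM-scaled over 12 libraries, which puts GATA2-GMP values above CPM by library size. Levels per kb used exonic length of GENCODE gene models in place of the coding length first planned.

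Deviations of GMP libraries from their group means correlated at 0.36, 0.35 and 0.24 for equal replicate numbers. In the other comparisons equal numbers correlated at -0.59 to 0.08, and unequal numbers in GATA2-GMP at up to 0.49. Whether replicate numbers mark pairs is not stated in the labels, and these correlations cannot settle it. The members and lists were chosen with earlier results of these data known. The text names all members freely: for stage, full statistics go to up to 10 called members of largest change and to Lamp1 and Tpp1; for genotype, to called members and the 5 largest values each way; in each related list, to up to 4 called genes. Alternatives were RLE size factors, library size alone, DESeq2 1.42.0, 2 other filters (1 count; 50 counts in 3 libraries), the replicate block, 1 fit over 12 libraries and leaving out each library. Markers of erythroid, lymphoid and neutrophil cells were summed too.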

Additional observations from a re-analysis of the deposited data

How the results depend on the processing

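Recomputed counts covered the called members in the 5 comparisons and the members with a higher mean level in GATA2-GMP than in GMP. Of these values, 116 stayed within 1.5 times the main count and 26 did not. Between the genotypes in GMP, no member was called higher in the main test, against 1 with library size alone or with no filter beyond 1 count. There were 2 with DESeq2, 5 with the replicate block and 0 to 2 on leaving out 1 library. Over all genes the higher calls were 79 of 12002 in the main test, 144 with library size alone and 121 of 16279 with no filter. They were 123 with DESeq2, 396 with the replicate block and 25 to 110 on leaving out 1 library. The 5 lower calls became 3 in 1 fit over 12 libraries and 4 to 5 on leaving out 1 library. Over all genes the 302 lower calls became 16 in that fit and 179 to 299 on leaving out 1 library. Between the genotypes in GATA2-GMP, 2 lower and 0 higher calls became 6 and 1 with DESeq2, where 2.68% and 2.28% of all genes were called. They became 4 and 1 with no filter beyond 1 count (170 and 124 of 19210 genes). In 1 fit over 12 libraries they became 9 and 3 (6.76% and 4.66% of all genes). The main test called 0.274% and 0.103% of all genes. With the replicate block 0 members were lower, beside 3 of 11699 genes. Leaving out 1 library gave 0 to 5 members lower, beside 0 to 240 over all genes. Deviations of libraries of equal number correlated at -0.21, -0.41 and -0.59 between the GATA2-GMP groups. Deviations of unequal numbers correlated at 0.39 and 0.49 for WT 3 with KO 1 and KO 2. For KO 3 they correlated at 0.28 with WT 1 and 0.48 with WT 2. The values were -0.22 for WT 1 with KO 2 and -0.30 for WT 2 with KO 1. What these libraries share was not tested. In the interaction, the 0 lower calls became 1 with RLE size factors, 9 with DESeq2 and 1 with no filter beyond 1 count. On leaving out 1 library 0 to 6 members were lower and 0 to 1 higher. Over all genes the 7 lower calls became 13 with RLE size factors, 582 with DESeq2 and 25 with no filter. On leaving out 1 library 0 to 614 of all genes were lower and 0 to 565 higher. With stage in WT, the 6 lower calls became 12 with library size alone and 4 to 10 on leaving out 1 library. Over all genes the 4462 lower calls became 6816 with library size alone and 3926 to 5050 on leaving out 1 library. Lamp1 turned from 0.42 to -0.42 with library size alone. The replicate block changed no count of member calls in either stage comparison. Leaving out a library also leaves its group with fewer libraries, and the cause of these changes was not tested.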

Other observations

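Markers of other cell types were at these levels beside the lysosomal transcripts. Summed over 12 neutrophil markers, the GMP WT libraries had 24785 to 27347 CPM and the GMP KO libraries 21242 to 25480 CPM. In GATA2-GMP the WT libraries had 44345 to 75404 CPM and the KO libraries 38737 to 63389 CPM. The 12 erythroid and megakaryocyte markers summed to at most 57.1 CPM in GMP and 204 CPM in GATA2-GMP, and the 12 lymphoid markers to at most 32.6 CPM and 88.8 CPM. In GMP the sum of 10 eosinophil markers was 77.2 to 273 CPM in WT and 318 to 644 CPM in KO. Within it Prg2 had 31.4 to 184 CPM in WT and 220 to 462 CPM in KO. The sum of 20 monocyte and macrophage markers was 1338 to 1561 CPM and 1353 to 1780 CPM. The part of these markers in the genotype values of GMP was not tested.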
